A study of Arabidopsis thaliana with 27 samples.

Results

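The comparison set hairless epidermal cells of the Arabidopsis thaliana root against its ground tissue, in GFP marker lines labelled Columbia. Arrays were chosen by their titles: 3 arrays of the GL2:GFP line, which by its label marks atrichoblasts from the quiescent centre upwards, and 3 arrays of the J0571:GFP line, labelled as marking endodermis, cortex and quiescent centre. These are 6 of the 27 arrays in the series. The other 21 comprise 3 arrays each of WOL:GFP (stele, fading from the elongation zone, Columbia), J3411:GFP (lateral root cap plus epidermis, C24) and SCR:GFP (Landsberg, endodermis and quiescent centre, with no tissue label on replicate 1), and 4 arrays for each of 3 developmental stages of the Columbia root. Every seedling culture was on MS medium with 4.5% sucrose in a cycle of 16 h light and 8 h dark, and both groups differ by their marker line and by no labelled treatment. RNA was labelled with biotin and hybridised to the Affymetrix ATH1 array, 1 array per sample. The labels used here do not say whether GFP-positive cells were sorted, at what age roots were taken, or whether the 3 replicates came from separate cultures, and a p-value here therefore speaks only of the spread among these arrays, which may be technical. Values are MAS5 signals, linear intensities that the authors scaled to a common trimmed mean. A signal of 13.2, the 95th percentile of 27 bacterial control probe sets, served as background. Median signals of the 6 arrays lay between 31.6 and 38.9. Differences are given as log2(signal + pseudocount) from limma, with signals in the order of replicates 1, 2 and 3. Folds are ratios of geometric means after signals under background were raised to it, and are written "at least" where the lower line had an array under background.

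The root epidermis of Arabidopsis consists of files of hair cells (trichoblasts) and hairless cells (atrichoblasts). In hairless cells a complex of MYB, bHLH and WD40 proteins switches on GL2, a homeodomain gene that suppresses hair outgrowth, together with the small R3 MYB inhibitors CPC and TRY, which act on the neighbouring hair cells. Inside the epidermis lies the ground tissue. It arises from 1 type of stem cell whose daughters divide into cortex and endodermis under the control of SHR, SCR and the BIRD zinc finger proteins, JKD among them, and the endodermis then seals itself with the Casparian strip, a lignin band built by peroxidases and dirigent proteins at sites set by membrane scaffolds and receptor kinases.

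Both marker genes differed between the lines, TRY being higher in GL2 and JKD higher in J0571. The signal of TRY, the R3 MYB inhibitor made in hairless cells, was 59.3, 83.0 and 97.5 on the GL2 arrays and 11.9, 15.6 and 2.37 on the J0571 arrays. Every GL2 array was above 4-fold background, and the lowest GL2 array lay above the highest J0571 array. The log2 difference was 2.92 ± 0.47 (SE, n = 3 arrays per line, limma with Benjamini-Hochberg adjustment, adjusted p = 0.00176). The signal of JKD, which keeps ground tissue divisions in place, was 1.31, 0.889 and 1.65 in GL2 and 124, 67.1 and 70.7 in J0571, a log2 difference of -4.57 ± 0.35 (limma, adjusted p = 1.35e-05). Because the GL2 signals of JKD were below background, this amounts to a level at least 6.33-fold lower. GL2 and WER, which define hairless cells, and SCR and SHR, which define ground tissue, were not analysed here, since the annotation used ties none of them to a probe set. GEM, which acts on GL2 and CPC expression, had signals of 142 to 268 in GL2 and 153 to 230.1 in J0571, and the bHLH factor ATMYC1 had 17.6 to 25.0 and 17.3 to 37.7, with adjusted p = 0.933 and adjusted p = 0.631 in limma.

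Some features of single arrays and of the J0571 line bear on the comparison. J0571 replicate 2 resembled both SCR and WOL more than the other J0571 replicates did. Its mean Pearson correlation over log2 signals was 0.913 with the SCR arrays, against 0.877 and 0.873 for replicates 1 and 3. With the WOL arrays it was 0.916, against 0.898 and 0.889. GL2 replicate 3 stood apart in its control probe sets, with a GAPDH 3'/5' signal ratio of 1.95 against 1.09 and 0.924 on the other GL2 arrays and an actin ratio of 3.09 against 1.53 and 1.71. Without this array 2246 probe sets were called, 2056 of them also among the 2782 called with it. Without GL2 replicate 1 or GL2 replicate 2 the counts were 2334 and 2387. For 30 probe sets all 6 arrays of J0571 and J3411 lay above all other 21 arrays, and for 69 they lay below them, after signals were raised to background. J3411 is the C24 line and J0571 is labelled Columbia. Of the 10 pairs of lines, GL2 with J3411, both labelled for epidermis, had more such probe sets, at 97 above and 118 below. J0571 with SCR, both labelled for endodermis, had 14 and 15, and J0571 with GL2 had 1 and 1. The locus AT4G29200 had signals of 547 to 733 on the J0571 arrays and 569 to 717 on the J3411 arrays, against 2.11 to 22.5 on all others. AT3G19520 showed the opposite, at 16.2 to 29.2 on those 6 arrays and 70.2 to 235 on the 21 others. The actin 3' control probe set was likewise at 252 to 286 in J0571 and 182 to 206 in J3411 and at 795 or more elsewhere, whereas the middle actin probe set, at 2003 to 2412 in J0571, lay within the range of the others (582 to 2961). Whether J0571 carries C24 sequence was not tested, and for these probe sets cell type and genetic background cannot be told apart. A background difference in a gene that also varies among the other 21 arrays would escape this rule, so the remaining calls are not cleared of it. The 30 and 69 probe sets account for 53 of those called higher in GL2 and 18 of those called lower. The genes among them that are named below are marked as shared with J3411.

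**Figure D1:**
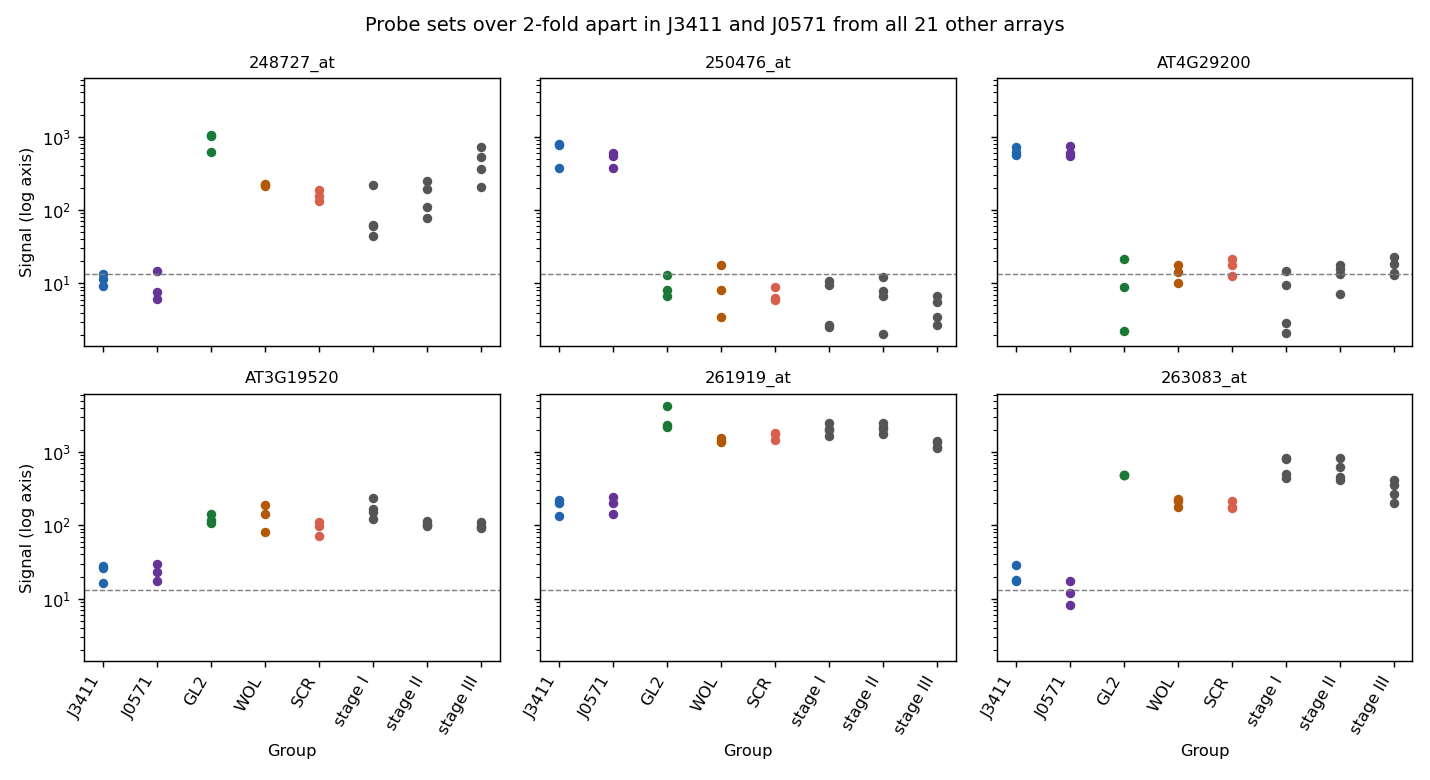
Signal (log axis) on each of the 27 arrays, grouped by marker line or root stage, for the 6 probe sets on which the J3411 and J0571 arrays lay more than 2-fold above or below all 21 other arrays. The dashed line is background, and for AT4G29200 the 6 arrays sit between 547 and 733 while no other array exceeds 22.5.

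Differences between the lines were numerous. The limma fit over the 9 Columbia arrays called 2782 of 22746 probe sets at an adjusted p under 0.05 (12.2%), 1228 of them higher in GL2 (5.4%) and 1554 lower (6.83%). Without the 99 probe sets shared with J3411 the counts were 1175 higher and 1536 lower. A difference of at least 2-fold as well as the threshold was reached by 2365 probe sets (10.4%). The median log2 difference over all probe sets was -0.09, and quantile normalization moved it to 0.02 and the share of calls that were higher from 44.1% to 50.8%. In bulk RNA, fewer cells of a type and less RNA per cell cannot be told apart.

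**Figure D2:**
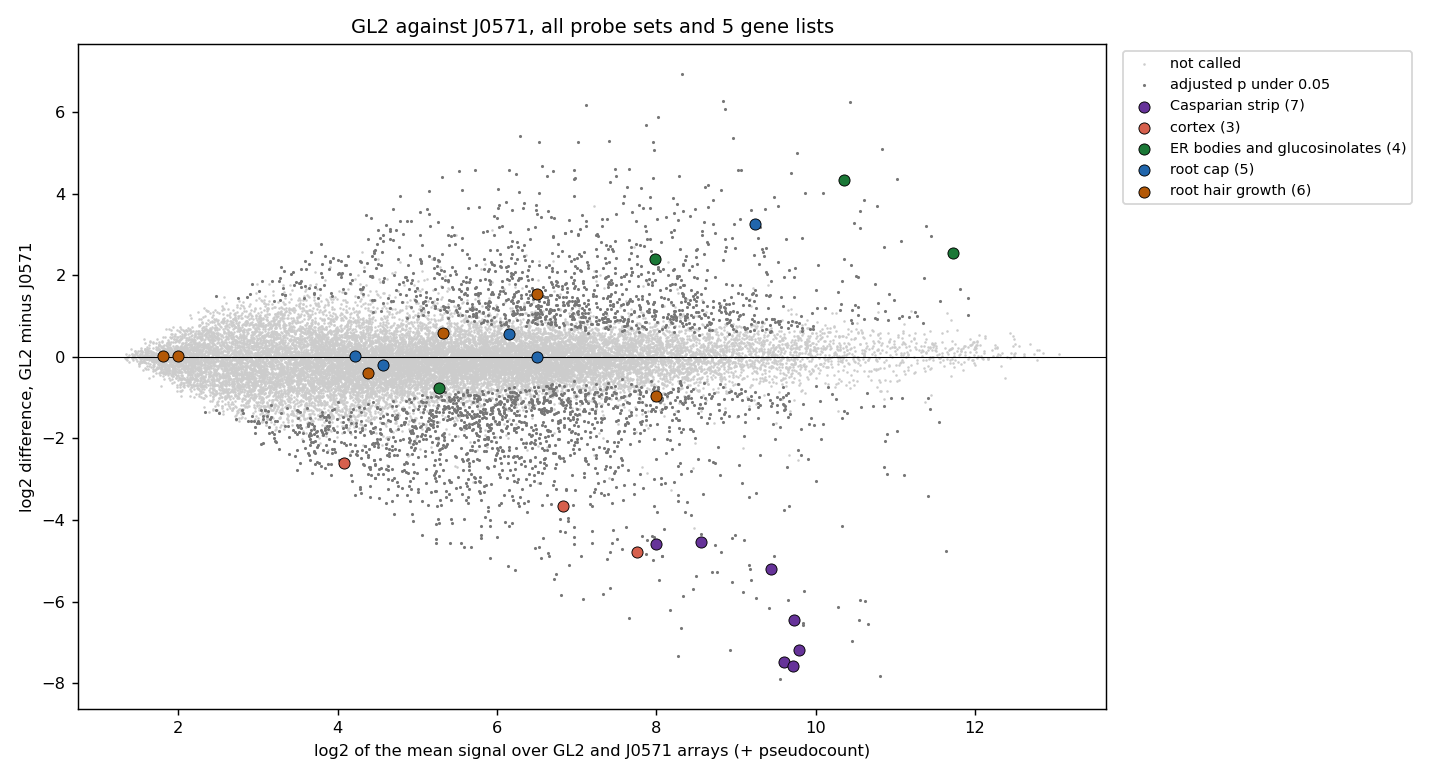
The log2 difference between GL2 and J0571 (vertical axis) against the log2 mean signal of the 6 arrays (horizontal axis) for 22746 probe sets, with the measured genes of 5 lists as coloured points. All 7 Casparian strip genes and all 3 cortex genes lie below zero, and 3 of 4 genes of the ER body and glucosinolate list lie above it.

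The gene lists were written with earlier results of these data known. The shares over all probe sets beside their counts are therefore a reference and no test. Of the lists, the Casparian strip genes had the largest median difference, and all of those measured were lower in GL2. Of the 20 genes on the list, 7 had a probe set of their own. All 7 were lower in GL2 and 0 were higher, with a median log2 difference of -6.45 against -0.09 over all probe sets, where 6.83% were called lower. Their summed signal was 66.4 to 124 on the GL2 arrays and 4885 to 17025 on the J0571 arrays. The sum was highest on J0571 replicate 2, which also had the highest signal for each of the 7 genes. Without that array all 7 remained called, with a median of -6.03.

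The receptor kinase GSO1, needed for an unbroken strip, had signals of 27.5, 29.6 and 16.4 in GL2 and 449, 1374 and 357 in J0571. Every J0571 array thus stood more than 10-fold above every GL2 array, and GSO1 was 25.4-fold lower in GL2 (log2 -4.53 ± 0.47, limma, adjusted p = 9.5e-05). The peroxidase gene PRX72 (AT5G66390), an enzyme class that couples lignin monomers, had 7.54, 6.59 and 1.52 in GL2, all below background, and 947, 3332 and 755 in J0571. It was at least 101-fold lower (adjusted p = 1.02e-05). Of the list's loci without a symbol, AT4G11290 had 7.38, 6.71 and 3.13 in GL2 and 1014, 2590.3 and 1035 in J0571, at least 105-fold lower (limma, adjusted p = 4.17e-06). AT1G44970 had 15.2, 21.6 and 10.2 against 1198, 2732 and 1077, at least 93.2-fold lower (adjusted p = 2.8e-06). Neither locus had overlapping groups, and the GL2 arrays of both were within 2-fold of background or below it. AT4G13580 was at least 91.2-fold, AT2G39430 39.7-fold and AT1G61590 at least 24.8-fold lower in GL2, with limma adjusted p between 3.23e-05 and 0.00036.

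In the remaining lines these 7 genes were high where the label includes endodermis or stele. Their summed signal was 9325 to 15358 on the SCR arrays, 2724 to 6667 on the WOL arrays and 78.3 to 203 on the J3411 arrays. The WOL range overlapped that of J0571 and lay below that of SCR, and the J3411 range overlapped that of GL2. GSO1 had a mean of 969 ± 167 (SD, n = 3) in SCR, 262 ± 119 in WOL and 29.0 ± 8.14 in J3411.

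**Figure D3:**
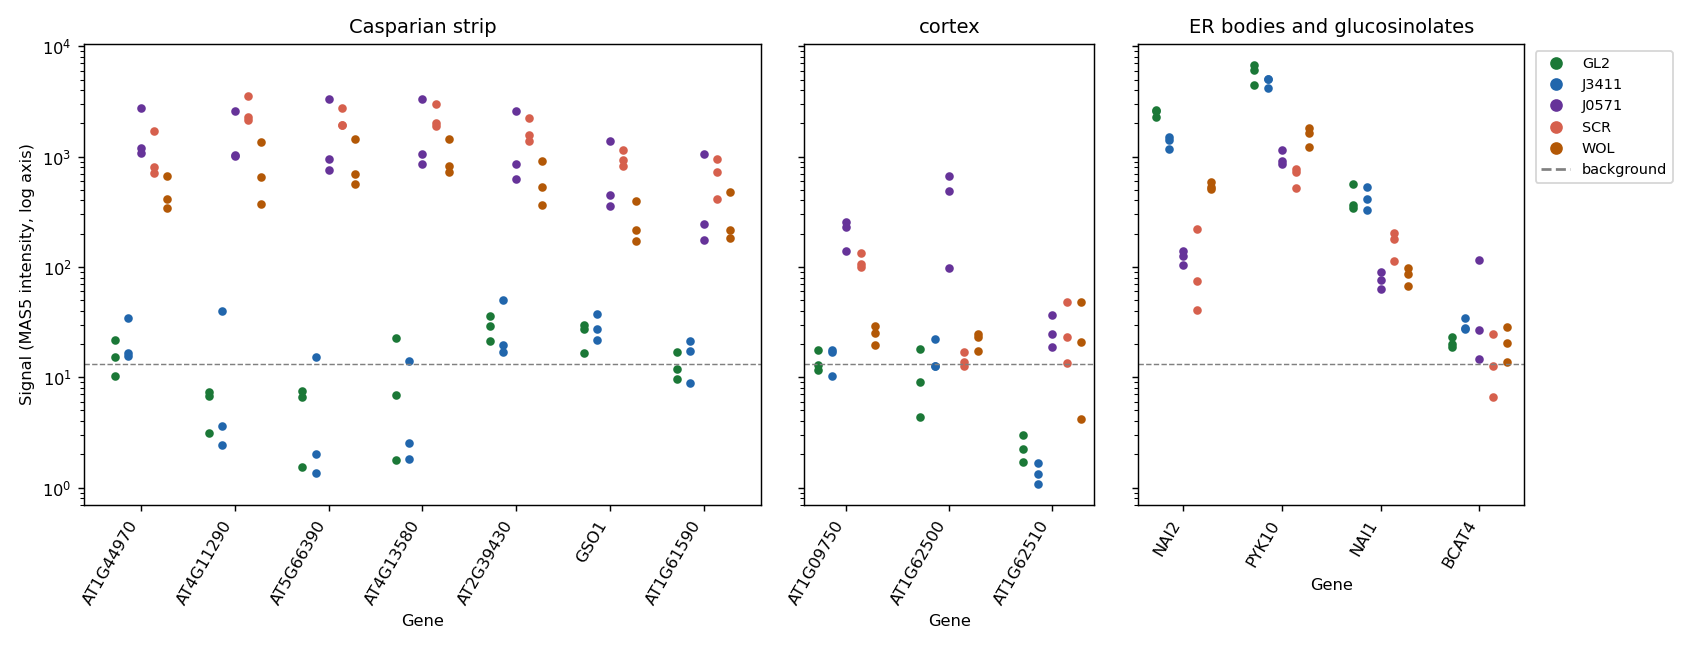
Signal (log axis) of each measured gene of the Casparian strip, cortex and ER body lists on the 3 arrays of each of 5 marker lines; points are single arrays and the dashed line is background. Casparian strip genes are high in J0571, SCR and WOL, AT1G62500 of the cortex list is above 97 in J0571 alone, and NAI2, PYK10 and NAI1 are highest in GL2 or J3411.

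Genes of the cortex list were lower in GL2 as well. Of 5 listed genes 3 were measured, and all 3 were lower and 0 higher, where 6.83% of all probe sets were called lower. Their median log2 difference was -3.65. AT1G62500 had signals of 4.34, 9.14 and 18.0 in GL2 and 487, 97.3 and 673 in J0571, at least 21.6-fold lower (limma, adjusted p = 0.00049). Here J0571 replicate 2 was the lowest of its group, in contrast to the Casparian strip genes. On the 24 arrays outside J0571, AT1G62500 read 39.1 at most. AT1G09750 had 12.8, 11.7 and 17.8 in GL2 and 139, 258 and 231 in J0571, with a mean of 113 ± 17.5 (SD, n = 3) in SCR. AT1G62510 was near background in both lines, at 1.72 to 2.98 and 18.7 to 36.7, and its call was lost under 6 of 19 alternatives, among them without J0571 replicate 2.

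Of 12 regulators of ground tissue identity 3 were measured, and JKD was the 1 that passed, as lower in GL2 (6.83% of all probe sets). The GRAS factor SCL23 had signals of 1.99 to 12.0 in GL2 and 13.2 to 25.7 in J0571 (limma, adjusted p = 0.211). In the list of 6 stem cell niche genes, 2 were measured. BBM, an AP2 factor of the root stem cell niche, had 9.38, 8.68 and 0.769 in GL2 and 65.0, 48.1 and 39.8 in J0571, at least 3.77-fold lower (adjusted p = 0.0033). Its means in WOL and J3411 were 41.3 ± 12.9 and 32.4 ± 9.68 (SD, n = 3). AGL42, a MADS-box gene known from the quiescent centre, which J0571 marks by its label, had 5.67, 16.8 and 1.24 against 13.4, 24.1 and 7.17, with overlapping groups (adjusted p = 0.358).

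ER bodies are compartments of the endoplasmic reticulum in Brassicaceae that store beta-glucosidases, and most measured genes of the list that covers them were higher in GL2. Of 19 genes on the ER body and glucosinolate list 4 were measured. Of these 3 were higher in GL2 and 0 lower, against 5.4% of all probe sets called higher, and the median log2 difference was 2.48. NAI2, a protein needed to form ER bodies, had signals of 2586, 2288 and 2623 in GL2 and 104, 140.2 and 126 in J0571. The arrays of each line lay close together and far from those of the other, and NAI2 was 20.4-fold higher (log2 4.32 ± 0.17, limma, adjusted p = 4.66e-07). PYK10, the main beta-glucosidase stored in root ER bodies, had 6137, 4472 and 6776 in GL2 and 866, 1152 and 910.2 in J0571, 5.90-fold higher (adjusted p = 6.1e-05). NAI1, the bHLH factor that controls these genes, had 564, 364 and 343 against 63.6, 90.8 and 75.3, 5.45-fold higher (adjusted p = 7.87e-05). The measured member that did not pass was BCAT4, an aminotransferase of glucosinolate chain elongation, at 18.7 to 23.0 in GL2 and 14.6 to 115 in J0571 (limma, adjusted p = 0.496).

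Jacalin-related lectins, several of which occur in a complex with PYK10, were looked at as a family after the values were seen. Of 4 measured, 2 were higher in GL2 and 0 lower, where 5.4% and 6.83% of all probe sets were called. JAL34 had 4176, 3210.4 and 3867 in GL2 and 379, 880.1 and 411 in J0571, 7.23-fold higher (limma, adjusted p = 0.00013). JAL33 had 996, 299 and 468 against 101, 115 and 111, 4.78-fold higher (adjusted p = 0.0013). JAL22 was high on only part of the GL2 arrays, at 298, 21.1 and 163 against 9.70 to 30.5, and did not pass (adjusted p = 0.0784). NAI2 and PYK10 were also high in J3411, which marks epidermis with lateral root cap, at 1362 ± 172 and 4737 ± 513 (SD, n = 3), and low in SCR, at 112 ± 96.2 and 671 ± 133.

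The 15 genes with the largest gain in GL2, by difference after signals were raised to background, were mostly loci without a symbol. AT5G26260 ranked first, with signals of 3424, 2791 and 1850.0 in GL2 and 18.9, 151 and 10.2 in J0571, at least 77.6-fold higher (limma, adjusted p = 0.000196). It was higher on every GL2 array than on any of the other 24 arrays, the highest of which read 1418. AT2G25450 had 502, 554 and 842 in GL2 and 0.702 to 7.21 in J0571, at least 46.5-fold higher (adjusted p = 2.03e-06). In J3411 this locus was also below background, at 1.78 ± 0.749 (SD, n = 3), although that line includes epidermis by its label, and in WOL it was at 324 ± 96.9. Its medians on the Columbia stage arrays were 318, 350 and 651 in stages I, II and III. The locus did not meet the rule for probe sets shared with J3411, but whether genetic background plays a part in its difference was not tested. AT2G21045 was at least 37.2-fold, AT5G23830 33.4-fold and AT1G66800 at least 23.9-fold higher in GL2, with adjusted p between 4.78e-06 and 0.000482. AT5G01870 had 2924, 31.4 and 1895 in GL2 against 14.1 to 29.1 in J0571, so that GL2 replicate 2 lay just above the J0571 arrays. Its adjusted p of 0.0395 rose to as much as 0.214 and its call was lost under 11 of 19 alternatives. AT4G15390 (at least 21.7-fold) and GSTU25 also belong to this top group, and both are shared with J3411.

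**Figure D4:**
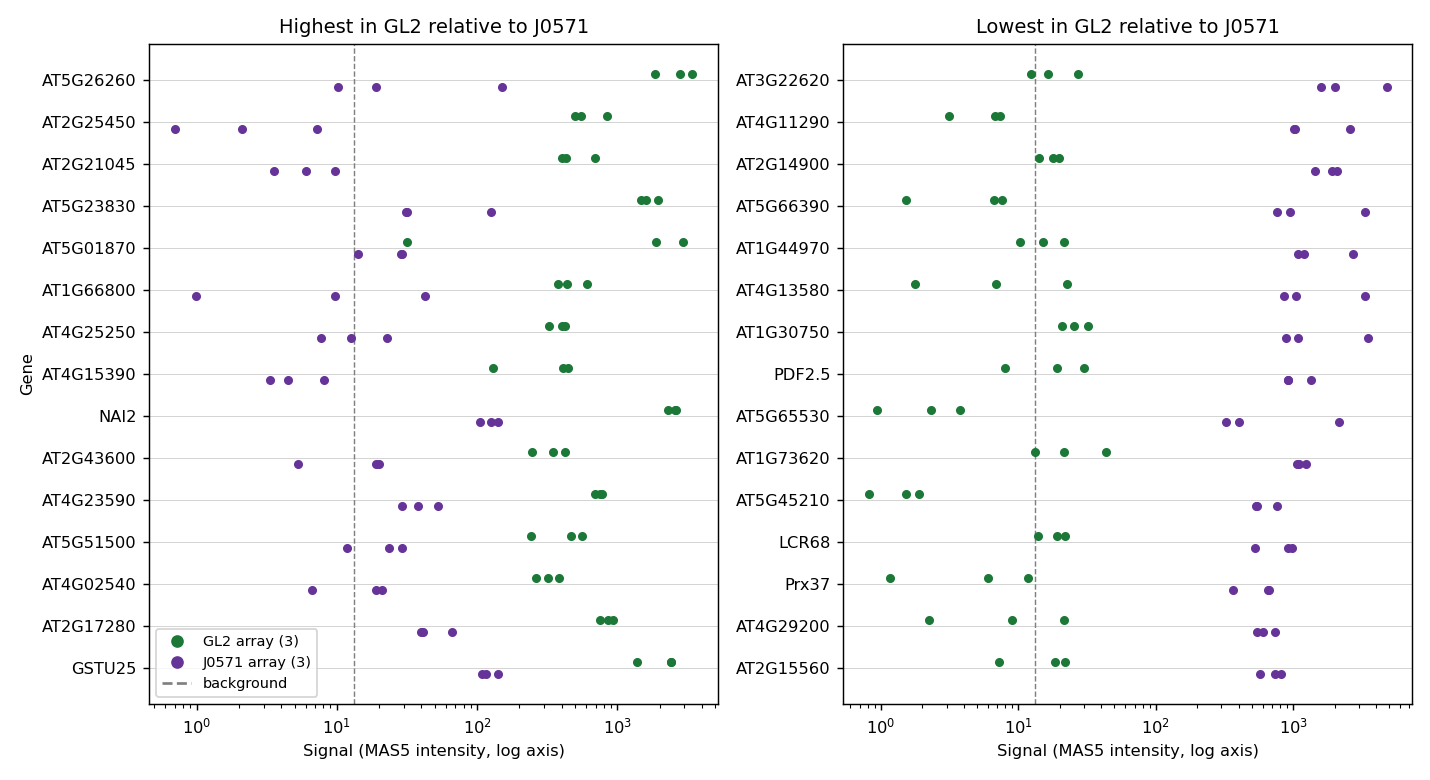
Signals (log axis) on the 3 GL2 and 3 J0571 arrays for the 15 genes ranked highest in GL2 (left) and the 15 ranked lowest (right), in rank order. Points are single arrays and the dashed line is background; AT5G01870 is the gene with a GL2 array, at 31.4, next to the J0571 arrays.

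Genes with a symbol of their own, chosen after the values were seen, show more of what was higher in the GL2 line. WAG2, a kinase that phosphorylates auxin efflux carriers, had signals of 457, 404 and 388 in GL2 and 33.3, 56.3 and 42.0 in J0571, 9.69-fold higher (limma, adjusted p = 1.35e-05). GH3.17, an enzyme that conjugates auxin to glutamate, had 534, 292 and 386 against 27.3, 128 and 36.0, 7.81-fold higher (adjusted p = 0.00294). WAG2 stood above the highest of the other 24 arrays, at 366, on every GL2 array. STR18, a sulfurtransferase, was 7.67-fold higher, with 631 to 1012 in GL2 and 58.4 to 295 in J0571 (limma, adjusted p = 0.00193). ETFBETA, a subunit of the mitochondrial electron transfer flavoprotein, was 5.59-fold higher (adjusted p = 2.62e-05) and is shared with J3411.

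The root cap is a neighbour of the epidermis. Of 12 root cap genes 5 were measured, with 1 higher in GL2 and 0 lower, beside 5.4% and 6.83% of all probe sets. Their median log2 difference was 0.01. The gene that passed was sks15, of the SKU5-similar family of copper oxidase-like proteins, at 1159.8, 1134 and 953 in GL2 and 143, 59.1 and 156 in J0571, 9.84-fold higher (limma, adjusted p = 0.000121). Its mean in J3411 was 2643 ± 858 (SD, n = 3). For the other 4, every array of both lines lay below the J3411 mean. AT4G27400 had 65.7 to 112 in GL2 and 60.9 to 139.5 in J0571, against 1575 in J3411. The summed signal of the 5 genes was 1178 to 1395 in GL2, 177 to 460 in J0571 and 3009 to 6074 in J3411, and the part of root cap cells in the GL2 differences was not tested.

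Some genes of growing root hairs were at or near background in both lines, and others were above it. Of 23 listed genes 6 were measured, 0 of them higher in GL2 and 1 lower, beside 5.4% and 6.83% of all probe sets. Their median log2 difference was 0.02, and 4 of the 6 were above background on every array of at least 1 line. The expansin EXPA18 was not called (limma, adjusted p = 0.307). The expansin EXPA7, the peroxidase locus AT3G49960 and the xyloglucan enzyme XTH26, all genes of growing hairs, had signals of at most 24.4, 1.51 and 1.71 in GL2 and at most 26.5, 1.52 and 2.18 in J0571. AT4G26010 had 194, 162 and 45.8 in GL2 and 22.7, 76.5 and 29.8 in J0571 with overlapping groups (limma, adjusted p = 0.101). It passed as higher in GL2 without J0571 replicate 2 (adjusted p = 0.0302) and without GL2 replicate 3 (adjusted p = 0.0153). SCN1, a RhoGDI that limits the sites of hair initiation, had 183, 175 and 155 in GL2 and 321, 364 and 315 in J0571, 1.95-fold lower (adjusted p = 0.00199). This call, the only 1 of the list, was lost in the 15-array fit and, by its size, at the 2-fold threshold. Of 20 stele and vascular genes, 2 were measured, and 0 were higher and 0 lower: LHW had 63.7 to 86.3 against 103 to 125 and PHV 14.9 to 21.8 against 5.58 to 27.6.

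Several of the loci lowest in GL2 were high in SCR as well, as the Casparian strip genes were. AT3G22620 ranked first, with 16.4, 27.2 and 12.3 in GL2 and 2014, 4771 and 1599 in J0571, at least 138-fold lower (limma, adjusted p = 4.78e-06). AT2G14900 had 17.9, 14.1 and 19.7 against 1431, 2085 and 1915, 105-fold lower (adjusted p = 1.14e-06). AT1G30750 and AT5G65530 were 58.4-fold and at least 49.5-fold lower, and both were highest on J0571 replicate 2. Means of these 4 loci, AT3G22620 and AT1G30750 among them, were 1229 to 3098 in SCR and 8.80 to 25.2 in J3411. A different pattern was that of AT2G15560, at 7.21, 18.4 and 21.8 in GL2 and 732, 569 and 812 in J0571, which was at least 40.0-fold lower in GL2 (adjusted p = 3.99e-06). It was low in SCR (70.5 ± 116, SD, n = 3), WOL and J3411, and no array outside J0571 exceeded 205. AT4G29200 was at least 40.0-fold lower in GL2 (adjusted p = 2.45e-05) and is shared with J3411.

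Several named genes of this group encode small cysteine-rich proteins of the plant defensin family. PDF2.5 had signals of 19.2, 29.9 and 8.00 in GL2 and 1350.2, 916 and 922 in J0571, at least 53.1-fold lower (limma, adjusted p = 4.17e-06). LCR68, also known as PDF2.3, had 19.1, 21.7 and 13.8 against 921, 524 and 971, 43.4-fold lower (adjusted p = 6.86e-07). LCR69, also known as PDF2.2, had 12.2, 8.71 and 2.06 against 254, 67.1 and 522, at least 15.6-fold lower (adjusted p = 0.000854). LCR68 and LCR69 were lowest on J0571 replicate 2 within their group, like AT1G62500 of the cortex list. In SCR, LCR68 averaged 231 ± 188 and LCR69 19.0 ± 1.42 (SD, n = 3), below every J0571 array in the case of LCR69. ATLP-1, a thaumatin-like protein, was 21.7-fold lower in GL2 (13.3 to 17.1 against 267 to 439, adjusted p = 4.36e-06).

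Among genes of the cell wall and of lignin formation, picked by symbol after the values were seen, some were lower and others higher in GL2. Prx37, a class III peroxidase, had 11.7, 1.16 and 6.02 in GL2 and 657, 365 and 670.0 in J0571, at least 41.0-fold lower (limma, adjusted p = 7.57e-06). CCR2, a cinnamoyl-CoA reductase of the lignin pathway, had 2.28, 2.71 and 1.23 against 59.6, 388 and 96.0, at least 9.85-fold lower (adjusted p = 0.000154). XTH16, which cuts and rejoins xyloglucan, had 7.82, 5.04 and 10.5 against 182, 276 and 257, at least 17.7-fold lower (adjusted p = 4e-06). EXGT-A3, also known as XTH27, was 10.2-fold lower (20.2 to 34.6 against 207 to 356, adjusted p = 1.35e-05). In the list of 27 expansins and xyloglucan enzymes, 12 were measured, with 1 higher and 1 lower, beside 5.4% and 6.83% of all probe sets. Their median log2 difference was -0.12. The lower one was XTH21 (0.424 to 0.894 against 62.8 to 79.3, at least 5.23-fold), and the higher one was the wall-loosening expansin EXPA9, with 1534, 1231 and 1436 in GL2 and 308, 299.9 and 306 in J0571, 4.58-fold higher (limma, adjusted p = 8.55e-05). Of 22 trichome birefringence-like genes, some of which acetylate wall polymers, 4 were lower and 1 higher (6.83% and 5.4% of all probe sets), with TBL37 8.34-fold lower (adjusted p = 8.9e-05) and TBL39 2.90-fold higher (adjusted p = 0.00128).

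UDP-glycosyltransferases, which attach sugars to hormones and secondary metabolites, were split between the lines. Of 47 measured, 7 were higher in GL2 and 6 lower, where 5.4% and 6.83% of all probe sets were called, and the median log2 difference was -0.08. Higher were UGT73B4, with signals of 611, 448 and 809.7 in GL2 and 89.7, 145 and 66.5 in J0571 (6.36-fold, limma, adjusted p = 0.000154), its relative UGT73B5 (6.02-fold) and UGT85A2 (5.65-fold). UGT73B4 and UGT73B5 are close relatives, and whether their probes tell the transcripts apart was not tested. Lower were UGT74B1, which glucosylates glucosinolate precursors, with 48.9, 47.5 and 59.7 in GL2 and 344, 216 and 204 in J0571 (4.78-fold, adjusted p = 0.00013), UGT74D1, which acts on auxins (7.64-fold, adjusted p = 0.000342), and UGT71B1 (at least 5.13-fold, adjusted p = 6.17e-05). The cytokinin glucosyltransferases UGT76C1 and UGT76C2 went opposite ways. UGT76C1 had 27.7, 15.7 and 33.5 in GL2 and 1.47, 6.88 and 2.70 in J0571 (limma, adjusted p = 0.0047), and UGT76C2 had 1.21, 1.37 and 10.8 against 50.9, 28.7 and 49.5 (adjusted p = 0.00583). GT72B1, also known as UGT72B1, was 8.78-fold lower (33.3 to 65.7 against 274 to 1051, adjusted p = 0.00179).

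The beta-glucosidase family was split in the same manner, with 4 of 21 members higher in GL2 and 6 lower, beside 5.4% and 6.83% of all probe sets, and a median log2 difference of -0.65. The 6 lower became 3 without GL2 replicate 1 or without J0571 replicate 3, and 4 without GL2 replicate 3 or J0571 replicate 1 or WOL replicate 1 or 2. Beside PYK10, those higher were BGLU25 (3.31-fold, limma, adjusted p = 0.00025), BGLU16 (3.78-fold, adjusted p = 0.00102) and BGLU42 (2.65-fold, adjusted p = 0.0052). BGLU46, which releases lignin monomers from their glucosides, had 22.2 to 43.9 in GL2 and 129.9 to 293 in J0571, 5.99-fold lower (adjusted p = 0.000635). BGLU43 was below background in GL2, at 0.429 to 1.36, and at 26.7 to 35.4 in J0571. Of 11 tau-class glutathione transferases, which conjugate glutathione to reactive compounds, 2 were higher and 1 lower, beside 5.4% and 6.83% of all probe sets. GSTU25 had 2407, 1367 and 2418 against 109, 141 and 116 (16.5-fold, adjusted p = 9.67e-06, shared with J3411), GSTU22 was 5.98-fold higher (adjusted p = 0.000259) and GSTU27 was 6.24-fold lower (adjusted p = 0.000222).

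**Figure D5:**
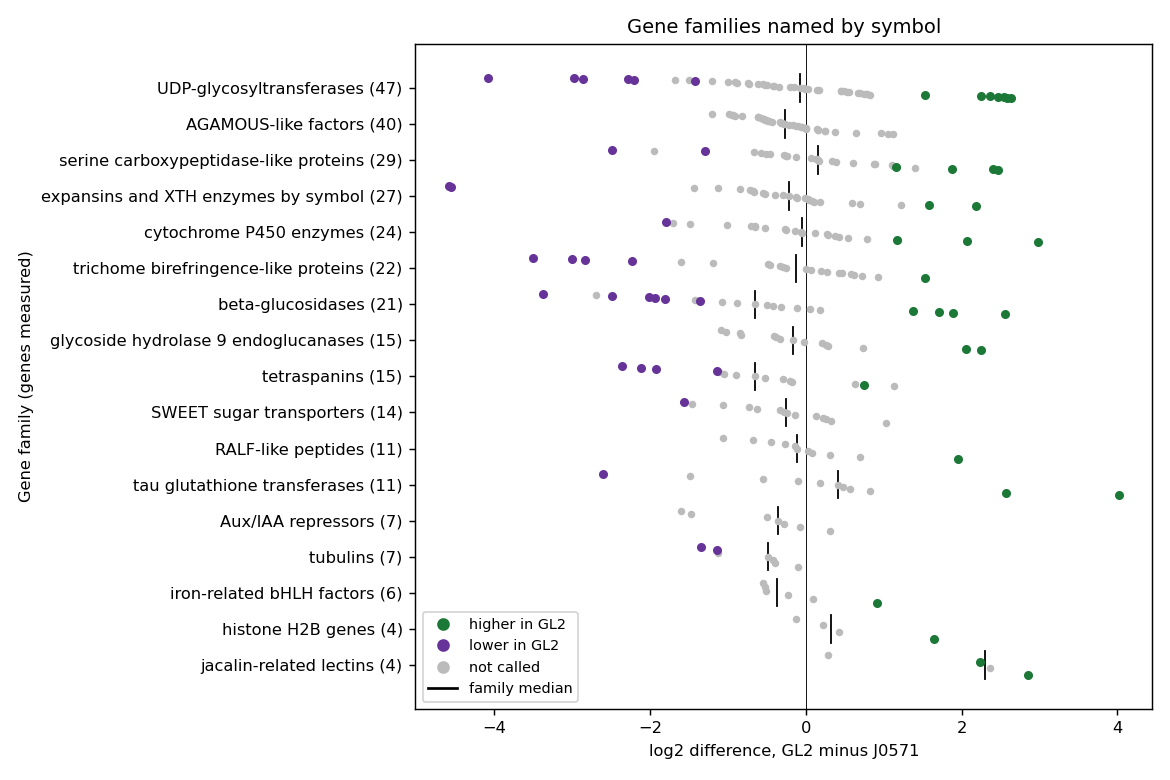
Fitted log2 difference between GL2 and J0571 (horizontal axis) for each measured member of 17 gene families defined by symbol, with the number of genes measured in brackets; green and purple points passed the threshold and black bars are family medians. UDP-glycosyltransferases and beta-glucosidases have members on both sides, while AGAMOUS-like factors have 0 of 40 past the threshold. Only 8 of those 40 were above background on every array of GL2 or of J0571.

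In the remaining lists and families few genes were called. Their counts stand beside 5.4% of all probe sets called higher in GL2 and 6.83% called lower. Of 14 gibberellin genes 4 were measured, and the receptor GID1A was lower in GL2 (36.7 to 54.6 against 80.0 to 132, 2.23-fold, limma, adjusted p = 0.017), a call lost under 3 of 19 alternatives. Among cell division genes (5 of 20 measured), flavonoid genes (3 of 10), touch, wound and elicitor genes (2 of 17) and auxin genes (1 of 24), 0 passed in either direction. Suberin, nutrient uptake and aquaporin genes were not analysed here for want of a probe set tied to any of them. Of 7 tubulins 2 were lower in GL2, TUB5 at 226 to 281 against 649 to 682 and TUB7 at 174 to 353 against 513 to 557 (limma, adjusted p = 0.000888 and adjusted p = 0.0103). Of 15 tetraspanins 4 were lower and 1 higher, beside 6.83% and 5.4% of all probe sets, with TET2 4.64-fold lower (adjusted p = 0.00107). The higher one, TET3, lost its call under 5 of 19 alternatives, among them without GL2 replicate 1 and without J0571 replicate 3.

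J3411 and SCR share no arrays with GL2 and J0571 and have other labelled backgrounds. By label they set lateral root cap plus epidermis, in C24, against endodermis and quiescent centre, in Landsberg. Between J3411 and SCR, cell type and genetic background therefore cannot be told apart. In limma, 907 probe sets were higher in J3411 than in SCR (3.99%) and 929 lower (4.08%). Of the 1228 probe sets higher in GL2 than J0571, 266 (21.7%) were also higher in J3411 than SCR and 47 (3.83%) were lower. Of the 1554 lower in GL2, 456 (29.3%) were also lower in J3411 and 63 (4.05%) were higher. Taken from the other list, 29.3% of the 907 were higher in GL2 and 49.1% of the 929 were lower. Probe sets that set J0571 and J3411 apart from all other arrays are in both comparisons. By their definition they differ in opposite directions in the 2 comparisons, so they can fall only among the 47 and the 63. SCR replicate 2 had GAPDH and actin 3'/5' ratios of 4.09 and 6.20, against 0.717 to 1.29 and 1.51 to 1.55 on the other SCR arrays. The part of that array in these shares was not tested. By mean signal, GL2 was the highest of the 5 marker lines for 810 of the 1228 probe sets and J3411 for 247. For the 1554 lower in GL2, J0571 was highest for 562, SCR for 494 and WOL for 344. Both sets were chosen by the difference between GL2 and J0571, so the counts for these lines are partly fixed by that choice. The same counts over all probe sets were not taken.

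The stage arrays hold whole Columbia root segments, so they give the level of these genes along the root over all cell types together. Stage I ends about 0.15 mm above the tip, stage II about 0.3 mm, and stage III runs from 0.45 to 2 mm. Of the probe sets lower in GL2, 51.5% were higher in stage III than in stage I and 13.3% lower (limma, adjusted p under 0.05), with a median log2 difference of 0.90, beside 21.0% and 22.1% over all probe sets and a median of 0.07. Of those higher in GL2, 26.6% were higher in stage III and 28.3% lower. GSO1 had a median signal of 32.1 (27.5 to 36.9, n = 4) in stage I, 53.3 (32.5 to 80.3) in stage II and 499 (492 to 573) in stage III. PDF2.5 ran the other way, with medians of 667 (445 to 763) in stage I, 649 (495 to 715) in stage II and 139 (79.7 to 191) in stage III. JKD had medians of 54.3, 34.5 and 37.5, with overlapping ranges, and TRY, at 15.9, 14.2 and 5.60, was near or below background in all stages. NAI2 had medians of 351 (313 to 590.1) in stage I, 802 (527 to 873) in stage II and 486 (215 to 539) in stage III, with overlapping ranges.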

How the data were processed

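The series holds 27 Affymetrix ATH1 arrays, 1 per sample, of which 3 GL2 and 3 J0571 arrays were compared; samples were grouped by their titles and labelled background. The deposited values are linear MAS5 signal intensities, scaled array by array by the authors. MAS5 is named in the submitters' processing notes, without a version or settings. The 2% trimmed mean was 100.01 on every array. No counts exist, so the number of arrays limits the precision.

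After 64 control probe sets were left out, log2(signal + 2.37), the pseudocount being the 10th percentile of all values, was fitted for 22746 probe sets with limma 3.58.1 in R 4.3.3 (intensity trend, Benjamini-Hochberg adjustment over all probe sets, threshold 0.05) over the 9 arrays of GL2, J0571 and WOL. The WOL arrays add only to the estimate of the spread. J3411 minus SCR and stage III minus stage I were fitted in the same way. The code was tested on simulated data. Tables were handled with pandas 2.3.3 in Python 3.11.15, and 0 columns of samples outside the series were present.

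GEO's platform annotation gave 1 gene to 13513 probe sets, several to 503 and none to 8730. Of the former, 13436 matched a locus of the RefSeq TAIR10.1 gene table, and 1580 had a symbol other than the locus. Genes were named by rank: the 15 with the largest and the 15 with the smallest difference among called probe sets with 1 gene, no overlap between lines and a mean above background, plus TRY, JKD and up to 4 genes of each list by adjusted p. Genes picked because they have a symbol, gene families, and list members beyond those 4 were chosen after their values were seen. The members and lists were chosen with earlier results of these data known. Alternatives tried were the pseudocount, quantile normalization, leaving out dim probe sets, the trend, a 2-fold threshold, the arrays in the fit, a replicate block, and leaving out arrays.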

Additional observations from a re-analysis of the deposited data

Results flagged for a closer look

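In 6 of 45 groups of 4 stage arrays tested, 1 array stood apart from the other 3 by Dixon's ratio of its gap to the whole range, and chance alone gives about 1 in 20. All 6 concern whole-root segments, not the GL2 or J0571 arrays. The median log2 level of the probe sets lower in GL2 had a ratio of 0.921 in stage III, where the lowest array was at 6.38 and the median at 6.50. GSO1 had a ratio of 0.904 in stage III, with the highest array at 573 and a median signal of 499. JKD had a ratio of 0.869 in stage II, with 1 array at 82.6 and a median of 34.5. NAI2 had a ratio of 0.831 in stage III, with 1 array at 215 and a median of 486. AT2G21045 had a ratio of 0.981 in stage II, with 1 array at 287 and a median of 186. AT2G14900 had a ratio of 0.865 in stage I, with 1 array at 6.26 and a median of 37.9.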

How the results depend on the processing

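Over 19 alternative settings the number of probe sets called between GL2 and J0571 ranged from 2017 (without J0571 replicate 3) to 3100 (only the 15600 probe sets above background tested), against 2782, and calls in each direction stayed within 1.5 times the main count. Leaving out 1 array gave 2246 to 2387 calls for GL2, 2017 to 2914 for J0571 and 2347 to 2590 for WOL. The 6-array fit called 2111 and the 15-array fit 2222. Without GL2 replicate 3 and J0571 replicate 2 together, a setting chosen after seeing the data, 2747 were called. With a replicate block, 2499 were called, 2396 of them also called without it; same-numbered GL2 and J0571 arrays deviated together with r of -0.001, 0.066 and 0.051, so the numbers were not read as pairs. Quantile normalization raised the share of calls higher in GL2 from 44.1% to 50.8%.

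Of 114 named or listed genes called, 94 were called under all 19 alternatives and 20 were lost under at least 1, among them AT5G01870, CYP718, SWEET7, BGLU27 and BGLU44 under 11 or more; 0 reversed. The cause was not tested. Signals at or under background limit differences among dim genes to lower bounds.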

Other observations

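Further gene families were defined by symbol after the values were seen, and their counts stand beside 5.4% of all probe sets called higher in GL2 and 6.83% called lower. Of 29 serine carboxypeptidase-like proteins, 4 were higher in GL2 and 2 lower. The 2 lower became 0 in the 6-array fit and without J0571 replicate 1, and 1 without GL2 replicate 1, GL2 replicate 2, J0571 replicate 3 or WOL replicate 2. scpl29 had signals of 523, 539 and 507 in GL2 and 217, 269.8 and 219 in J0571 (2.24-fold higher, limma, adjusted p = 0.00229). SCPL45 had 33.2, 5.58 and 69.4 against 156, 146 and 152 (at least 4.84-fold lower, adjusted p = 0.0189), a call lost under 3 of 19 alternatives. Of 24 cytochrome P450 enzymes 3 were higher and 1 lower. Leaving out GL2 replicate 3, J0571 replicate 1 or J0571 replicate 3 left 1 higher and 0 lower, and leaving out J0571 replicate 2 left 1 and 1. Without GL2 replicate 1 the counts were 2 and 0, without GL2 replicate 2 or WOL replicate 3 they were 2 and 2, and without WOL replicate 1 or 2 they were 2 and 1. CYP78A9 had 76.5, 81.3 and 206 against 24.1, 29.7 and 19.5 (4.51-fold higher, limma, adjusted p = 0.00601). Of 15 endoglucanases of glycoside hydrolase family 9, which cut wall glucans, 2 were higher and 0 lower: GH9C3 had 115 to 303 against 27.1 to 62.9 and GH9B8 had 86.1 to 197 against 11.9 to 52.0. Of 4 histone H2B genes HTB2 passed, with 277, 407 and 517 against 149, 114 and 108 (3.17-fold higher, adjusted p = 0.00107). Of 11 RALF-like peptides RALFL27 was higher (41.4 to 107 against 9.37 to 21.7, at least 3.86-fold, adjusted p = 0.00911). Among 40 AGAMOUS-like factors and 7 Aux/IAA repressors 0 passed in limma. Only 8 of the former and 3 of the latter were above background on every array of GL2 or of J0571.

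Some probe sets were highest in 1 line over the whole series. For 138 probe sets all 3 GL2 arrays lay above the 24 other arrays, and 109 of these were called higher in GL2. For 79 probe sets all 3 J0571 arrays lay above the 24 others, and 64 of these were called lower in GL2. TRY was of the first kind, with 52.9 as the highest reading outside GL2, as was STR18, at 343. AT5G45210 was of the second kind, at 532 to 762 in J0571 with 473 as the highest reading elsewhere.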
